A study of Homo sapiens with 2 samples.

Results

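The genes described here are 9 factors of the integrated stress response: DDIT3, ATF4, ATF3, ATF5, TRIB3, CHAC1, PPP1R15A, CEBPB and CEBPG. Every probe set annotated to 1 of these genes alone was taken, which gave 17 probe sets, out of 19775 genes that the arrays name in this way. The list was chosen by name with measured values in view, since the lower signal of DDIT3 and ATF4 on 1 of the arrays was already known. Their differences are therefore given as a description, with no test.

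The data come from HCT116, a human colorectal cancer cell line grown in serum-containing RPMI-1640 medium, and no added stress agent is named in the labels. Total RNA of 2 cultures was hybridised to 1 array each. The HCT116-GFP culture is labelled as the wild-type line, and the HCT116-CPEB4 culture as the line over-expressing CPEB4 from a lentiviral system. CPEB4 is an RNA-binding protein that controls poly(A) tails and translation, and the comparison asks what its over-expression does to the transcriptome. The sources used here do not say whether the HCT116-GFP cells received a vector, or whether either line is 1 clone or a pool. With 1 array for each culture no spread between replicates can be measured and no p-value was computed; precision is limited by the number of arrays. The arrays read RNA in bulk, so a lower value cannot be divided into fewer expressing cells and less RNA per cell.

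The integrated stress response is a pathway by which cells answer misfolded protein in the endoplasmic reticulum, lack of amino acids, lack of haem, mitochondrial faults or viral double-stranded RNA. Dedicated kinases phosphorylate the translation initiation factor eIF2 on its alpha subunit, which lowers protein synthesis in general but favours translation of ATF4, a transcription factor whose mRNA carries upstream open reading frames. ATF4 then pairs with C/EBP proteins and switches on genes for amino acid supply, redox balance and, when stress persists, CHOP (encoded by DDIT3), a factor linked to cell death. Because ATF4 is controlled largely at translation, its mRNA level is not a measure of its protein level, and protein was not measured here.

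Several facts of the whole dataset bear on these genes. CPEB4 itself was lower on the array labelled HCT116-CPEB4 at all 4 of its probe sets. The 3 that passed the dim filter explained below had log2 differences from −0.44 to −0.08, and the remaining one was under it on both arrays. The direction of every difference therefore rests on the labels alone. It is not known here which part of the transcript those probe sets read, and a probe set outside the introduced sequence would check nothing. Of 9 colon epithelial markers, 6 exceeded the dim filter on both arrays, among them EPCAM, KRT8, KRT18 and KRT19, while VIL1, CDX1 and LGALS4 did not. The summed level of this list was 87576 for HCT116-GFP and 88556 on the other array. Markers of fibroblasts, blood and immune cells and endothelium exceeded the filter on both arrays in 1 gene of 5 (COL1A1), 1 of 5 (CD79A) and 1 of 4 (PECAM1). Their summed levels were 1100.5 against 1469 for fibroblasts, 403 against 371 for blood and immune cells, and 232 against 131 for endothelium. PTPRC, the common leukocyte antigen, and VWF, the endothelial clotting factor, were under the filter on both arrays. The ratio of 3′ to 5′ signal of the ACTB controls, which grows with RNA degradation, was 8.23 for HCT116-GFP and 10.3 on the other array, while that of the GAPDH controls was 0.989 and 1.04. The part of these ratios in the results was not tested.

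Each value is a linear intensity in arbitrary units. Differences are log2 values of the array labelled HCT116-CPEB4 minus the HCT116-GFP array, so −1 is a 2-fold lower value. Probe sets entered the comparison when at least 1 array read 60.8 or more, the 50th percentile over both columns (the dim filter). A gene with several such probe sets was represented by the brightest, judged on the mean of its log2 values, which gave 13704 measured genes with a median difference of 0.00. Genes 2-fold or more apart were called lower or higher; the threshold is one of size and carries no test. By that rule 3.85% of all measured genes were lower and 3.55% were higher.

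All 9 genes were measured, and 15 of their 17 probe sets passed the dim filter. DDIT3 was the 1 gene of the 9 past 2-fold lower, and none was past 2-fold higher. The difference was below 0 for 7 genes and above it for 2, the median being −0.16, whereas 49.9% of all measured genes lay below 0. Without DDIT3 the median of the remaining 8 genes was −0.12, and they ran from −0.53 to 0.32. These 8 still include ATF4, whose lower signal was also known when the list was chosen. The count below 0 and the medians are therefore not free of that choice. Among the 15 kept probe sets of all 9 genes, 10 lay below 0 and 5 above; 2 of them, both of ATF5, exceeded the filter on 1 array only. When at least 1 array had to read 377 or more (the 75th percentile, the stricter filter), 6 of the genes remained, 5 of them below 0, and their median was −0.38.

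**Figure D1:**
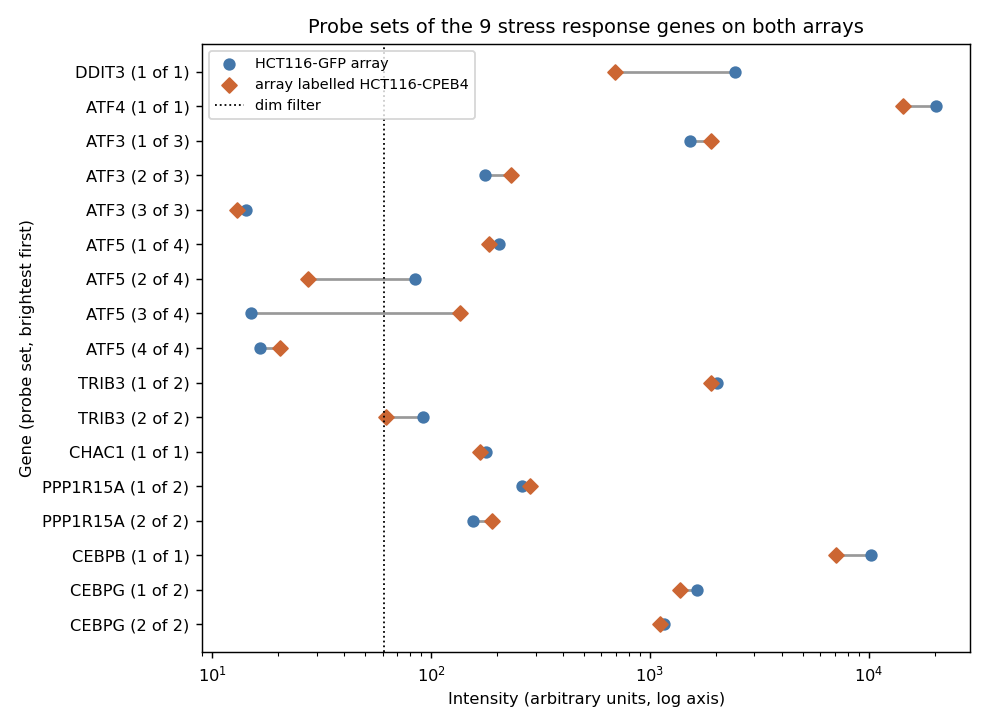
Intensity of every probe set of the 9 genes on both arrays, on a log axis in arbitrary units; circles are the HCT116-GFP array, diamonds the array labelled HCT116-CPEB4, and the dotted line is the dim filter of 60.8. DDIT3 spans the longest line among probe sets that exceed the filter on both arrays, from 2456 to 694, and the ATF5 probe sets with long lines cross the filter in opposite directions.

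DDIT3 encodes CHOP, a C/EBP family protein that pairs with other C/EBP proteins and promotes cell death under lasting stress. Its probe set read 2456 for HCT116-GFP and 694 on the array labelled HCT116-CPEB4. The second value was thus lower by 3.54-fold, a log2 difference of −1.82, with both values far over the dim filter. Among all 13704 measured genes 1.63% had a lower difference. Each of those genes had both values under 377, in the range where the spread of differences widens. Under the stricter filter 8463 genes remained and only 0.165% of them, or 14 genes, were 2-fold or more lower. DDIT3 had the lowest difference of these 8463 genes. The next were UTS2R at −1.55, XYLT2 at −1.40 and DDIT4, an inhibitor of mTORC1 that stress induces, at −1.32. UTS2R read 418 against 143 and XYLT2 471 against 178, so both passed the stricter filter through the HCT116-GFP array only. DDIT4 read 7878 against 3163, over 377 on both arrays. DDIT3 has 1 probe set on this array, so no second probe set of the gene bears on the value.

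**Figure D2:**
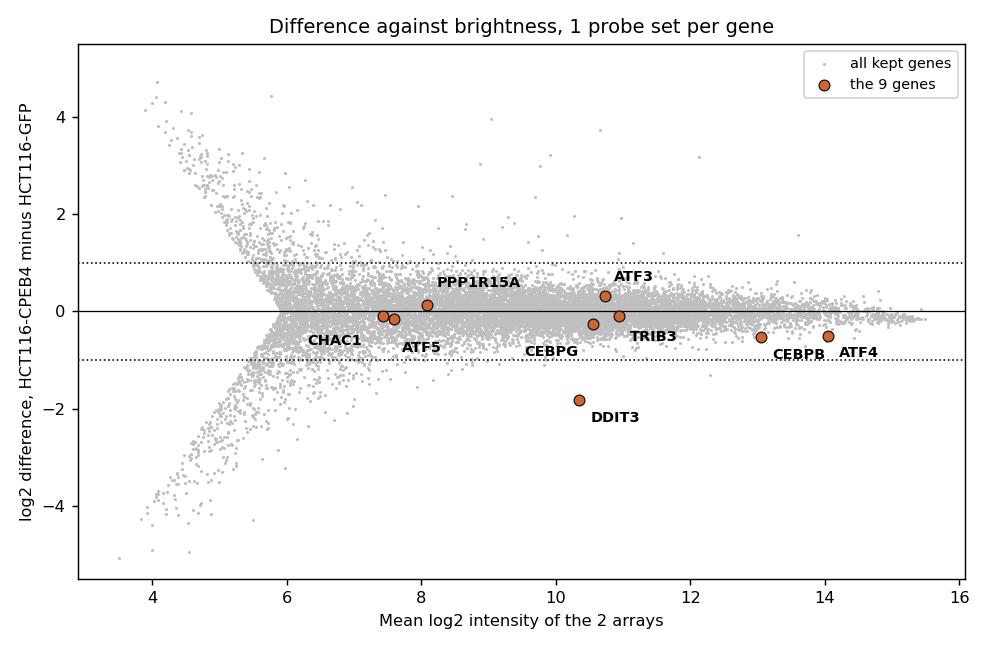
Log2 difference of HCT116-CPEB4 minus HCT116-GFP (vertical axis) against the mean log2 intensity of both arrays (horizontal axis), with 1 grey point for each of 13704 measured genes and orange points for the 9 genes; dotted lines mark 2-fold. DDIT3 at −1.82 is the lowest of the 8463 genes that passed the stricter filter, and the other 8 genes lie between the dotted lines.

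The genes whose values on the 2 arrays came closest to those of DDIT3 were SEMA4B, PDGFA, PRF1, PLCG2 and KRT15. Likeness was measured as the distance in the plane of both log2 intensities, and it rests on 2 arrays only. SEMA4B, the nearest, read 1658 against 932 and lay 0.71 log2 units away. Intensities of different probe sets are not comparable as levels, so the order is a description only. The differences of these genes ran from −0.83 to −0.78 at their brightest probe sets. PRF1 and PLCG2 each had another kept probe set nearer to 0, at −0.19 and −0.16, and that of PDGFA stood at −0.85.

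ATF4, the central transcription factor of the pathway, read 20156 for HCT116-GFP and 14274 on the array labelled HCT116-CPEB4, a difference of −0.50. Both values lay far over the stricter filter. Of all measured genes 10.4% had a lower difference, and of the 8463 genes that passed the stricter filter 3.70%. ATF4 also has 1 probe set here.

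ATF5, a relative of ATF4 whose translation is controlled in a similar way, had 1 probe set that exceeded the dim filter on both arrays. This one, its brightest, was at 205 for HCT116-GFP and 184 for the other array (−0.16). Another read 84.1 against 27.4, and the next 15.1 against 135. These exceeded the filter on 1 array only, the former for HCT116-GFP and the latter on the other array, so no fold is read from them. The last read 16.5 against 20.5, under the dim filter on both arrays.

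ATF3, a stress-induced factor that ATF4 activates, went the other way from DDIT3. At its brightest probe set it read 1522 for HCT116-GFP and 1903 on the array labelled HCT116-CPEB4, a difference of 0.32. Another kept probe set read 177 against 232 (0.39), so the kept pair shared a sign and differed by 0.07. The remaining probe set was under the filter at 14.2 against 13.0. Of all measured genes 17.7% had a higher difference than the brightest ATF3 probe set.

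CEBPB and CEBPG are C/EBP proteins that pair with ATF4 and with CHOP. CEBPB, which also drives inflammatory and acute-phase genes, read 10263 for HCT116-GFP and 7089 on the array labelled HCT116-CPEB4. Its difference was −0.53, and it ranked 255th from the lowest of the 8463 genes that passed the stricter filter. CEBPG, a C/EBP protein without an activation domain of its own, read 1647 against 1376 at its brightest probe set and 1156 against 1115 at the other. Both probe sets were lower on the second array, at −0.26 and −0.05. Both CEBPG values lay nearer to 0 than those of ATF4 and CEBPB.

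TRIB3, CHAC1 and PPP1R15A are targets of ATF4 or CHOP that act on the response. TRIB3, a pseudokinase that binds ATF4 and CHOP and restrains them, read 2030 for HCT116-GFP and 1910 on the second array (−0.09). Its second probe set read 92.2 against 62.0 (−0.57), close to the dim filter. CHAC1, an enzyme that degrades glutathione and is commonly read as a marker of ATF4 activity, was 178 against 167, also −0.09. PPP1R15A encodes GADD34, which brings protein phosphatase 1 to eIF2 alpha and so ends the response. It read 261 against 284 (0.12) at its brightest probe set and 156 against 191 (0.29) at the other. The differences of TRIB3 and CHAC1 lay near the middle of all genes, since 39.4% and 39.5% of measured genes were lower. The 3.54-fold lower DDIT3 value stood beside near-equal values for CHAC1, for the brightest probe set of TRIB3 and for that of PPP1R15A. CHAC1 and PPP1R15A read under 377 on both arrays, in the range where the spread of differences widens. What these values mean for the activity of ATF4 or CHOP was not tested.

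The promoters of the 9 genes were read from RefSeq on build GRCh38.p14, from 250 bases before to 50 bases after each annotated start, and all 9 genes matched, with 18 windows in all. They are shown as background to genes with shared regulators, and no link between a promoter and a difference was tested. Matches on either strand are in capitals, for 4 patterns of letters: the composite C/EBP-ATF element TGATGNAA, the CRE-like element TGACNTCA, the AP-1 element TGACTCA, and CCAAT followed after 9 bases by CCAC, the spacing of the endoplasmic reticulum stress element.
DDIT3 promoter, chr12:57520465-57520764, minus strand: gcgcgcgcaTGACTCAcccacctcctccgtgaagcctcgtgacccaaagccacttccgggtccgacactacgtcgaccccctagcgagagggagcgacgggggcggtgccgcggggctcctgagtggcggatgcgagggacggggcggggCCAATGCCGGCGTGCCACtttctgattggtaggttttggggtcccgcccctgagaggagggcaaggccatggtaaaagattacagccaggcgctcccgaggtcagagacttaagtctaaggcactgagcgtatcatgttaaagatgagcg
CHAC1 promoter, chr15:40953221-40953520, plus strand: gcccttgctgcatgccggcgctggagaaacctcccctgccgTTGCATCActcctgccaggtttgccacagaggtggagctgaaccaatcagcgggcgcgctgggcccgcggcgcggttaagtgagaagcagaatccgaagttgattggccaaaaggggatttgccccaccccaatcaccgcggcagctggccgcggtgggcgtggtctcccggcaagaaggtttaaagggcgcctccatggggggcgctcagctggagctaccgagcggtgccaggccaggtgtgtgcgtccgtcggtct
ATF3 promoter, chr1:212565157-212565456, plus strand: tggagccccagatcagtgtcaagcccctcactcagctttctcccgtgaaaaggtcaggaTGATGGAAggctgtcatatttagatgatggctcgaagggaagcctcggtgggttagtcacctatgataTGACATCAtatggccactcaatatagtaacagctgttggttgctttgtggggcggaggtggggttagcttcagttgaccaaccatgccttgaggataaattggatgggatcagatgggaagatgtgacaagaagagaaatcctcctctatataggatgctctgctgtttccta
PPP1R15A promoter, chr19:48872171-48872470, plus strand: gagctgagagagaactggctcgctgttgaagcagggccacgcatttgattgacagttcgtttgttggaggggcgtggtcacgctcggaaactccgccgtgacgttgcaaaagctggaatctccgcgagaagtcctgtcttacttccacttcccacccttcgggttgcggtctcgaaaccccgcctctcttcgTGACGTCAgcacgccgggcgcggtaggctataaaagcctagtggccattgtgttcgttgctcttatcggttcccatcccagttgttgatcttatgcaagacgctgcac
CEBPG promoter, chr19:33373863-33374162, plus strand: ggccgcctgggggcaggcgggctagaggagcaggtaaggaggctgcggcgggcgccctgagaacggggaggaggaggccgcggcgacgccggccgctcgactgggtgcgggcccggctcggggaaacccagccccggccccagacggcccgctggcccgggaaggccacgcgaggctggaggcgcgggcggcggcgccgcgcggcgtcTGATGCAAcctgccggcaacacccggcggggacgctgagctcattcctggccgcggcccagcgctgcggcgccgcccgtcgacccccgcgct

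DDIT3 held the CCAAT and CCAC pair, which 0.381% of all 27305 genes with promoter windows hold in at least 1 window, and an AP-1 element (6.05% of genes). It was the only 1 of the 9 genes with the spaced pair, and it held no composite C/EBP-ATF element in this window. Composite elements were found in CHAC1, CEBPG and ATF3, against 4.46% of all genes. CRE-like elements were found in ATF3 and PPP1R15A, against 9.21% of all genes. ATF5 held an AP-1 element in 1 of its windows, and no pattern was found in the windows of ATF4, CEBPB and TRIB3. None of these matches overlapped another. A match is a run of letters in a window and was not tested as a binding site. The patterns were chosen after the windows had been seen, so the shares are a description only. The 3 genes with a composite element differed by −0.09 (CHAC1), −0.26 (CEBPG) and 0.32 (ATF3).

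The kinases that start the response lay near 0 at their brightest probe sets, apart from EIF2AK2. EIF2AK2 encodes PKR, which senses double-stranded RNA and is known as an interferon-induced gene. It read 1390 for HCT116-GFP and 3664 on the array labelled HCT116-CPEB4 (1.40), with 0.94 at another probe set. Its last probe set read 24.0 against 149, over the dim filter on the second array only. EIF2AK3 encodes PERK, the kinase of the endoplasmic reticulum, and read 1272 against 1271. EIF2AK4 encodes GCN2, which senses uncharged tRNA, and read 1995 against 2002, although its other probe set read 123 against 247 (1.00). EIF2AK1, the haem-regulated kinase, read 3629 against 3433. Of the 4 kinases 1 was thus past 2-fold, in the direction opposite to DDIT3, beside 3.55% of all measured genes past 2-fold higher.

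The substrate and the exchange factor of the pathway differed by less than 2-fold in every subunit measured. Of 10 measured subunits of eIF2 and eIF2B and related initiation factors, 6 lay above 0 and 4 below, none past 2-fold, with a median of 0.10. The eIF2 alpha subunit EIF2S1 read 8327 against 8939 (0.10), with 1 of its 3 probe sets below 0. The beta subunit EIF2S2 was lower at −0.42 and the initiation factor EIF2A at −0.25, while the exchange factor subunits EIF2B3 and EIF2B4 were higher at 0.37 and 0.28. Of 11 regulators of eIF2 alpha phosphorylation 4 lay above 0 and 7 below, with a median of −0.12 and none past 2-fold. PPP1R15B, the constitutive partner of the phosphatase, read 3711 against 3419 (−0.12). The catalytic subunits PPP1CC and PPP1CA stood at −0.16 and −0.15, and the adaptor NCK1 at −0.15. OMA1, the mitochondrial protease that starts the signal to EIF2AK1, stood at 0.30. DNAJC3, an inhibitor of PERK and PKR, stood at 0.12, with probe sets from −0.28 to 0.29.

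Among other C/EBP and basic leucine zipper factors, 29 of 34 listed genes were measured, with 10 above 0, 19 below and a median of −0.10. Averaging over probe sets gave a median of 0.02, so its direction is not settled. CEBPD, a C/EBP gene of the acute-phase response, read 723 against 449 (−0.69), and FOS, an AP-1 subunit, stood at −0.63. BATF2, a factor known to respond to interferon, read 164 against 409 (1.32), and CREB3, a membrane-bound factor of the secretory pathway, read 575 against 1370 (1.25). These were the 2 genes of the list past 2-fold, both higher, and none was past 2-fold lower. Of all measured genes 3.55% were past 2-fold higher. BATF2 and CREB3 have 1 kept probe set each.

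Genes listed as ATF4 targets were divided by function, the first list being that of amino acid genes. Of 17 measured genes in the amino acid list, 15 lay below 0 and 2 above, with a median of −0.24 and none past 2-fold. Of all measured genes 49.9% lay below 0. SLC7A11, the cystine transporter, stood at −0.97, with its other probe sets at −1.05 and −0.03. The transsulfuration enzyme CTH stood at −0.54 and the proline synthesis enzyme ALDH18A1 at −0.47. CHAC2, a relative of CHAC1 that was also listed with the gamma-glutamyl cycle, was higher, at 1527 against 2222 (0.54). The amino acid median was below 0 in all 8 alternatives that were computed for it, between −0.24 and −0.12.

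Aminoacyl-tRNA synthetase genes, which ATF4 also activates, were on the other side of 0. Of 12 measured genes 10 lay above 0 and 2 below, with a median of 0.07 and none past 2-fold. Of all measured genes 50.1% lay above 0. WARS1, which interferon is also known to induce, stood at 0.44, SARS1 at 0.19, TARS1 at 0.14 and AARS1 at 0.09. The median of this list was above 0 in all 8 alternatives, between 0.05 and 0.09. The medians of these 2 lists thus lay on opposite sides of 0, and the difference between the lists was not tested. Each median was nearer to 0 than 0.27, the median gap between the 2 brightest kept probe sets of a gene.

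Other stress targets of ATF4 and CHOP were mixed. Of 28 measured genes 18 lay below 0 and 10 above, with a median of −0.10, 1 past 2-fold lower and 0 past 2-fold higher. DDIT4 read 7878 against 3163 (−1.32) and was that 1 gene, beside 3.85% of all measured genes past 2-fold lower. NDRG1, a stress and hypoxia gene, stood at −0.71. JDP2, a repressor of AP-1, stood at −0.56 at its brightest probe set and at −1.33 at its other kept one. ERO1A, the oxidase of the endoplasmic reticulum that CHOP activates, stood at −0.39 with all 3 kept probe sets below 0. TNFRSF10B, the death receptor that CHOP induces, read 7154 against 6701 (−0.09), with probe sets up to 0.48.

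**Figure D3:**
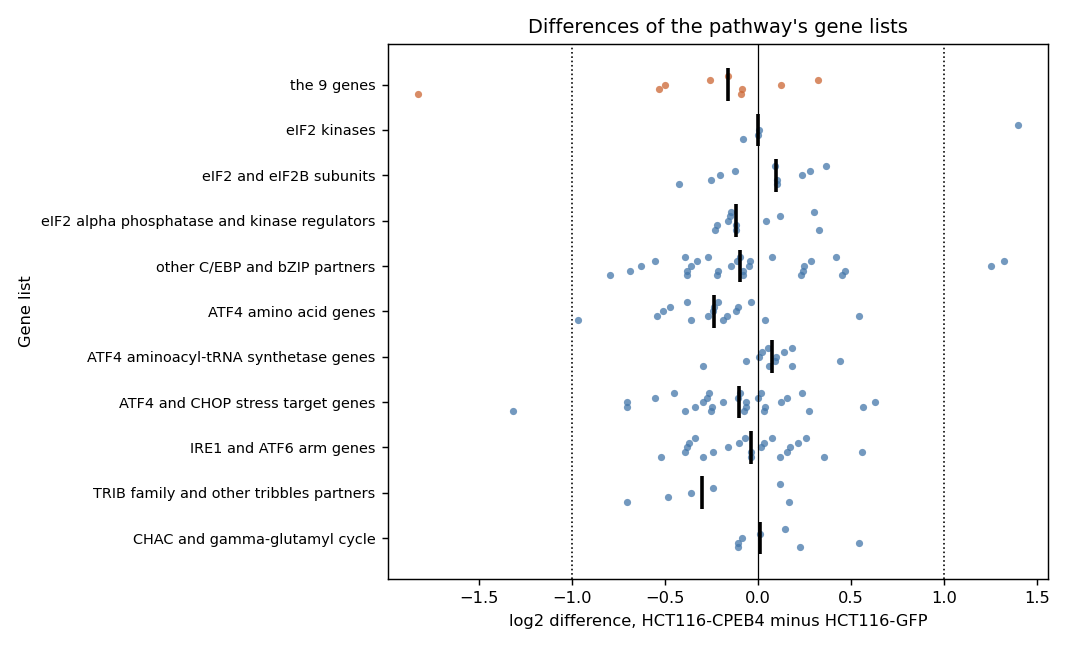
Log2 difference of HCT116-CPEB4 minus HCT116-GFP for each measured gene (points) of the 9 genes and of 10 lists of the same pathway; black bars are medians and dotted lines mark 2-fold. Amino acid genes lie mostly left of 0 with a median of −0.24, aminoacyl-tRNA synthetase genes mostly right of it with a median of 0.07, and EIF2AK2 at 1.40 stands alone among the kinases.

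The arms of the unfolded protein response that run beside PERK, through IRE1 and ATF6, lay on both sides of 0. Of 22 measured genes 12 lay below 0 and 10 above, with a median of −0.04 and none past 2-fold. Averaging over probe sets gave a median of 0.01, and leaving out those ending in _s_at or _x_at gave 0.00. The direction of the median is therefore not settled. XBP1, the transcription factor that IRE1 activates by splicing, read 1558 against 2292 (0.56), and HSPA5, the main chaperone of the endoplasmic reticulum, read 20278 against 23551 (0.22). HYOU1, another chaperone, stood at 0.35, PDIA4, a disulfide isomerase, at −0.52, and ERN1, which encodes IRE1, at −0.37.

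The relatives and partners of TRIB3 and CHAC1 were small lists. TRIB2 and TRIB1, the other tribbles genes, stood at −0.70 and −0.24, and AKT1, a kinase that TRIB3 binds, at 0.17. Of the 6 genes in that list 4 lay below 0, with a median of −0.30. Genes of the gamma-glutamyl cycle, to which CHAC1 belongs, had 4 above 0 and 3 below, with a median of 0.01 that was below 0 after quantile normalization and after lowess. Glutathione synthetase GSS stood at 0.23, and GCLM and GCLC, the subunits of the first enzyme of glutathione synthesis, stood at 0.15 and −0.11.

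DDIT3, ATF4 and CEBPB have 1 bright probe set each, so only the 3 scalings and the pseudocount could move their differences; the filters and the choice of probe sets could not. Over those 4 alternatives DDIT3 ran from −1.85 to −1.78, and ATF4 and CEBPB ran from −0.50 to −0.45 and from −0.54 to −0.51. ATF3 and PPP1R15A were above 0 in each alternative that measured them, and TRIB3, CHAC1 and CEBPG below 0. ATF5 was below 0 at its brightest probe set; its mean over probe sets takes in the pair measured over the filter on 1 array only and is not read.

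**Figure D4:**
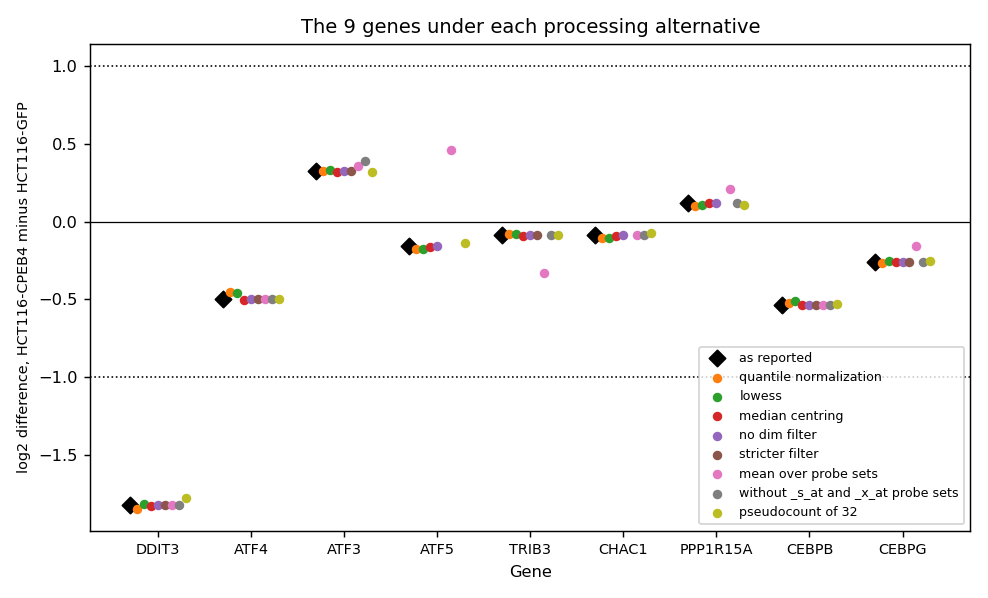
Log2 difference of HCT116-CPEB4 minus HCT116-GFP for the 9 genes (horizontal axis) as reported (black diamonds) and under each of 8 processing alternatives (coloured circles); a missing circle means that the alternative left the gene out. DDIT3 lies between −1.85 and −1.78 under the 3 scalings and the pseudocount, the 4 alternatives that can move it. The ATF5 circle above 0 is the mean over probe sets, which takes in 2 that exceeded the dim filter on 1 array only.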

How the data were processed

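Total RNA of 2 HCT116 cultures was measured on 1 expression array each, with biotin as the label of the hybridised material. The deposited table holds 1 linear intensity per probe set and array. Per the submitters' processing notes the software was Partek, with no version or role; how probes were summarised, background-corrected and scaled is not stated there. Of 54675 probe sets, 41097 have 1 gene symbol in the platform annotation, 1801 several and 11777 none; 41043 of those with 1 gene were matched to RefSeq by Entrez identifier, for names only. Control probe sets (62) and probe sets not naming exactly 1 gene were not used. Log2 was taken without a pseudocount, with Python 3.11.15, pandas 2.3.3 and statsmodels 0.14.6 (lowess). The steps were tested on simulated data.

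The members, the 10 pathway lists (157 genes, 5 of them in 2 lists, no member among them) and the tests were chosen with earlier results of these data known. The 4 patterns searched in promoters were chosen after the windows had been seen. Named are all members with every probe set, the 4 genes of each list with the largest absolute difference whose kept probe sets share a sign (fewer where fewer do), the eIF2 kinases, EIF2S1, PPP1R15B, DNAJC3, XBP1 and HSPA5, and the 5 genes nearest DDIT3. TNFRSF10B, UTS2R and XYLT2 were added after their values were seen. Each choice was replaced in turn by 9 alternatives: 3 scalings (quantile, lowess, median centring), no dim filter, a stricter filter, the mean over probe sets, leaving out probe sets ending in _s_at or _x_at, a pseudocount of 32 and a fold of 1.5.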

Additional observations from a re-analysis of the deposited data

How the results depend on the processing

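No group has a replicate, so a value was taken as unchanged when it moved by less than 0.27 on the log2 scale, the median gap between the 2 brightest kept probe sets of a gene over 6520 genes, and a count when it stayed within 1.5 times. DDIT3 was the 1 member past the fold, and lower, in each of the 9 alternatives, and no called member reversed; with its single bright probe set, only the 3 scalings and the pseudocount could move its value. Without _s_at and _x_at probe sets only 3 eIF2 kinases were measured, EIF2AK1 being left out, and their median was 1.00. That median is the value of the remaining EIF2AK4 probe set, which read 123 for HCT116-GFP and 247 on the other array. The median of the members went from −0.16 to −0.38 under the stricter filter, which kept 6 of them. Without _s_at and _x_at probe sets the median went from 0.10 to 0.01 for eIF2 and eIF2B subunits, with 8 of 10 genes measured. It went from 0.01 to 0.15 for the gamma-glutamyl cycle (5 of 7 genes) and from −0.24 to −0.12 for amino acid genes (10 of 17 genes). These medians thus cover fewer genes. Of the 10 amino acid genes 8 lay below 0, against 15 of 17 as reported. Counts over all genes, 527 lower and 487 higher, followed the filter and the fold: 1875 and 1761 without the dim filter, 14 and 40 under the stricter filter, 292 and 281 with a pseudocount of 32, and 1137 and 1126 at 1.5-fold. The lower share of the called genes went from 52.0% to 25.9% under the stricter filter. No scaling moved the median of all genes by as much as 0.01. DDIT3 ranked 224th from the lowest of all measured genes, 914th without the dim filter, 13th with a pseudocount of 32 and 1st under the stricter filter. The stricter filter left out ATF5, CHAC1 and PPP1R15A. No paired analysis was possible because each group has 1 array.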

Other observations

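DDIT3 headed the 14 genes that were 2-fold or more lower under the stricter filter. Each of the 14 had 1 probe set that passed this filter, against 64.9% of the 8463 genes. The filter asks for 377 or more on at least 1 array. Of the 14 genes, DDIT3, DDIT4, RDM1 and NME4 read over 377 on both arrays, and the others for HCT116-GFP only. At the main dim filter 8 of the 14 still had 1 probe set, so no second one could differ in sign. These 8 are among the 11 that had no kept probe set of the opposite sign. Of the genes with a further kept probe set, KMT5A, MYCL and SEPTIN6 had a kept probe set above 0, while MAP1B, SESN3 and XYLT2 did not. Of the genes in the list that have a further kept probe set, SESN3, a sestrin that restrains mTORC1, read −1.20 and −0.76, and XYLT2 read −1.40 and −0.42. MYCL read −1.30, and its other kept probe set, which exceeded the dim filter on the second array only, lay above 0. SEPTIN6 ran from −1.10 to 0.22. These genes were named after their values were seen. Among the 40 genes that were 2-fold or more higher under the same filter, 80.0% had 1 probe set.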
